A study of Homo sapiens with 8 samples.

Results

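The calpains are a family of calcium-activated cysteine proteases, and calpastatin is their dedicated protein inhibitor. The 10 genes described here are CAPN1, CAPN2, CAPN5, CAPN7, CAPN9, CAPN10, CAPN12, CAPN13, CAPNS1 and CAST, chosen by name from the RefSeq accession attached to each array probe. They were measured by 13 probes, with 2 probes each for CAPN10, CAPN13 and CAST, out of 42405 probes on the array. Of the 28850 genes tested, 17858 had a symbol. The rest were unmatched accessions or noncoding loci, each counted as a gene, and shares of all genes are over this mixed set. All 10 genes described here were tested. They were picked with the difference between the groups on these same arrays in view, so that difference is given for them as a description, with no p-value, and the count of them that passed the thresholds applied to all genes is a description too.

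LNCaP is a line of androgen-responsive human prostate cancer cells. The cells were transfected with 30 nM of an siRNA against GATA2, a zinc finger transcription factor, or with a scrambled siRNA, and RNA was taken after 72 h. Each group, siGATA2 and siControl, was hybridised to 4 one-colour arrays that the submitters describe as biological replicates of a single cell line, and the methods name a single siRNA against GATA2. Levels are log2 processed signals after quantile normalization, on which a difference of 1 is a 2-fold change in signal. Levels of different genes were not set against each other, since each probe has its own brightness. Levels served to choose the brightest probe of a gene, and those of the marker lists were averaged per array.

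Calpains cut their substrates at a limited number of sites, which alters the substrates rather than destroying them, and they are best known for the turnover of cell adhesions, remodelling of the cytoskeleton and cell death. The classical enzymes, μ-calpain and m-calpain, each pair a catalytic subunit, encoded by CAPN1 or CAPN2, with the shared regulatory subunit encoded by CAPNS1, and CAST encodes the inhibitor of both. Of the remaining catalytic genes, CAPN9, CAPN12 and CAPN13 keep the domain order of that pair, while CAPN5, CAPN7 and CAPN10 encode calpains without its calcium-binding penta-EF-hand domain.

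The targeted gene did not have a lower signal on the siGATA2 arrays. GATA2 was measured at 12.61, 12.54, 11.57 and 11.40 on siGATA2 arrays 1 to 4 and at 11.74, 11.28, 11.10 and 11.29 on siControl arrays 1 to 4. The groups overlapped, and the siGATA2 mean was 0.68 ± 0.312 (SE, n = 4 and 4) above the siControl mean (limma, adjusted p = 0.154). The arrays are therefore called by their labels throughout, and each direction below is that of the arrays labelled siGATA2 against those labelled siControl. Where the probe lies relative to the siRNA target is not given in the sources used here, and the array holds no protein measurement.

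All 8 arrays came from 1 slide and had 24261 to 37019 probes well above background, which is the scanner software's own flag for a signal above the local background. Of these, siControl array 3 had the fewest and siControl array 1 the next fewest, at 28521. The standard deviation of the negative control spots was 4.49 on siControl array 1 and 7.26 on siControl array 3, against 1.78 to 2.4 on the other arrays. The E1A spike-in RNA added to each labelling reaction read 11.13 on siControl array 1 and 13.45 to 13.83 elsewhere. The siGATA2 arrays also fell into pairs. Arrays 1 and 2, whose titles carry the letters A and B, lay together on one side of arrays 3 and 4, with E and F, in 79.4% of 28730 genes, and the pairs' means differed by at least 1 in 12.5%. What the letters stand for is not stated, so differences are also given within the arrays lettered A and B (siGATA2 arrays 1 and 2, siControl array 1) and within those lettered D to G (siGATA2 arrays 3 and 4, siControl arrays 2 to 4). All 9 LNCaP markers examined, KLK3, KLK2, TMPRSS2, FOLH1, HOXB13, STEAP2, KRT8, KRT18 and EPCAM, were well above background on every array. Of the markers of other cells that had a probe, 1 of 6 for fibroblasts, 1 of 4 for leukocytes, 2 of 4 for endothelium and 0 of 3 for basal epithelium were so on every array. The mean level of the leukocyte list was 7.60 to 7.65 on the siGATA2 arrays and 6.60 to 6.99 on the siControl arrays, with PTPRC higher by 0.87 (adjusted p = 0.00138, limma) and CD68 by 2.0 (adjusted p = 0.000592, limma), and the mean level of the LNCaP list was 14.69 to 15.28 and 15.16 to 15.36. Of the LNCaP markers 3 were called lower, KLK2 (-1.84, adjusted p = 0.00372), KLK3 (-1.63, adjusted p = 0.0321) and HOXB13 (-0.40, adjusted p = 0.0183), and KRT8 was called higher (0.56, adjusted p = 0.0283). Endothelial VWF was lower by 0.96 (-0.96, adjusted p = 0.00155). The part of these markers in the calpain values was not tested. A lower signal in such bulk RNA cannot tell fewer cells of a kind from less RNA per cell.

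CAPN12, CAPN2 and CAPN5 had the largest differences of the 10 genes, CAPN12 and CAPN2 higher and CAPN5 lower on the siGATA2 arrays, and the other 7 lay within 0.5 of 0 on the log2 scale. At an adjusted p under 0.05 and at least a 2-fold difference (limma), 2 of the 10 were called higher and 1 lower. Among all 28850 genes 4.52% were called higher, 7.13% lower and 11.6% in either direction by the same rule. The groups did not overlap in 3 of the 10 genes, by their brightest probes, against 32.6% of all genes. These counts are shaped by how the genes were chosen. The median difference of all genes was 0.09.

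**Figure D1:**
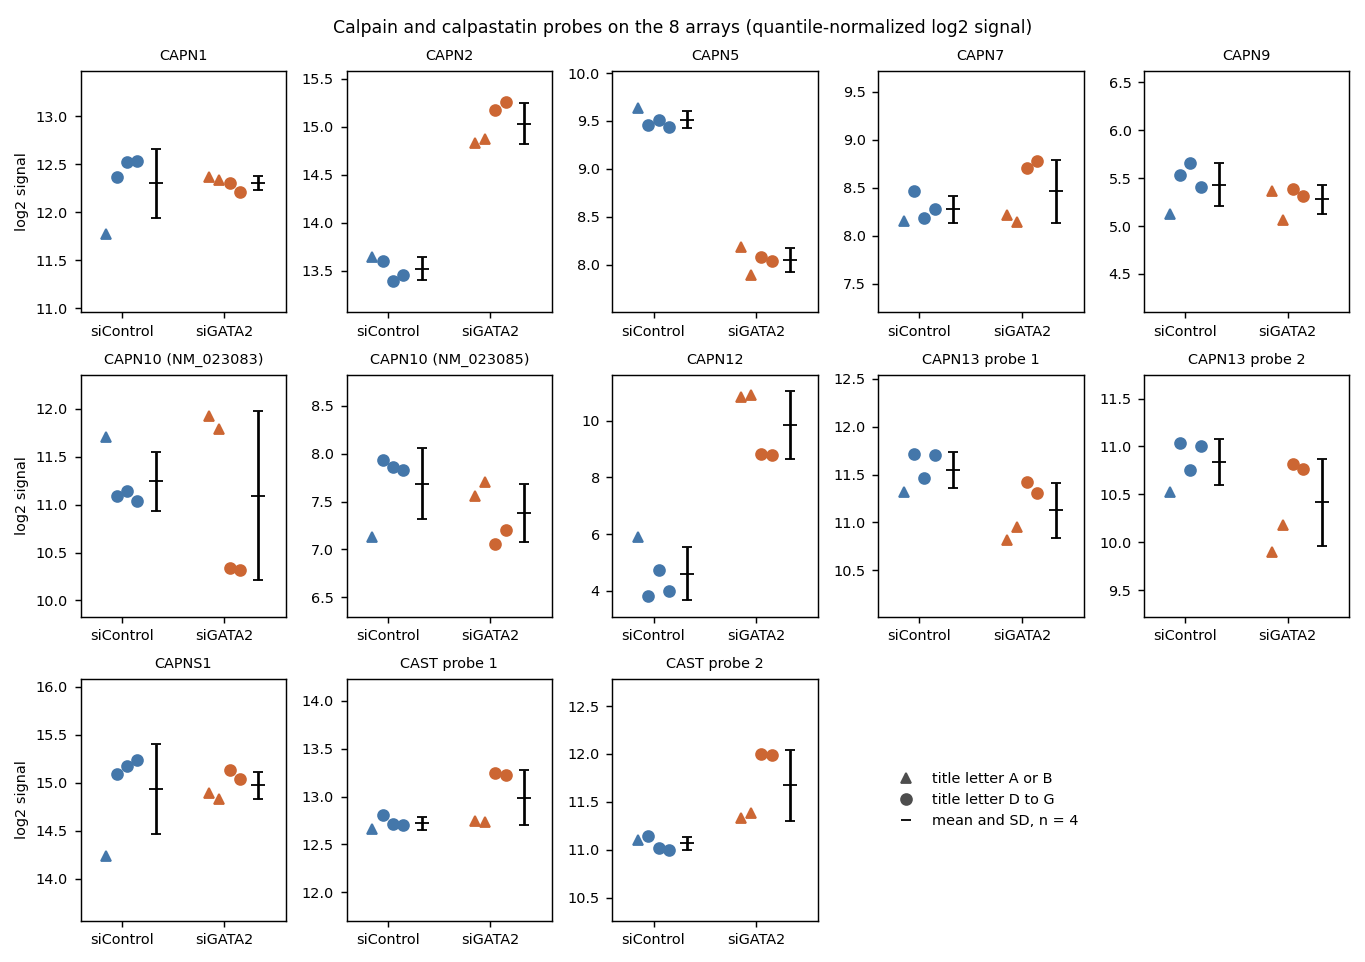
Quantile-normalized log2 signal of the 13 calpain and calpastatin probes on each siControl (blue) and siGATA2 (orange) array, with triangles for arrays whose titles carry the letter A or B, circles for D to G, and the mean and SD of 4 arrays at the right of each group. The vertical scale differs between panels. The groups stand apart for CAPN2, CAPN5, CAPN12 and the second CAST probe, and the CAPN12 triangles of the siGATA2 group sit near 10.9, above its circles near 8.8.

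CAPN12 encodes a calpain known chiefly from the hair follicle and skin. Its signal was 10.85, 10.92, 8.83 and 8.78 on siGATA2 arrays 1 to 4 and 5.89, 3.80, 4.74 and 4.00 on siControl arrays 1 to 4. The groups did not overlap, with a gap of 2.89 between the lowest siGATA2 array and the highest siControl array. The means were 9.85 ± 1.20 and 4.61 ± 0.946 (SD, n = 4 each), a difference of 5.24 ± 0.673 (SE), or 37.8-fold. By the size of this difference CAPN12 stood in place 2 from the highest of 28850 genes, of which 3 (0.0104%) were higher by more than 5.

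The siControl end of that difference was near the detection limit. Before normalization the CAPN12 processed signal was 1733.0, 1893.8, 471.4 and 435.9 intensity units on the siGATA2 arrays, and 41.5, 15.6, 20.1 and 15.7 on the siControl arrays. It was well above background on 4 of 4 siGATA2 arrays and on 3 of 4 siControl arrays, siControl array 3 being the exception. The siControl value that stood highest, 41.5 units, was that of array 1, the array with the low spike-in signal. The size of the difference varied with the processing. With normexp background correction, where an offset of 50 added to every signal makes low signals more alike, the difference was 3.37. With arrays weighted by their fit it was 6.52. With no filter on dim probes or a stricter one it stayed at 5.24. The filter follows the normalization, so it cannot change the difference of a gene with a single probe.

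The siGATA2 arrays were themselves unequal for CAPN12. Arrays 1 and 2 differed by only 0.08, and arrays 3 and 4 by 0.06, but the means of the pairs differed by 2.08. Within the arrays lettered A and B the siGATA2 mean was 10.88 against 5.89 on the single siControl array, a difference of 5.0. Within those lettered D to G it was 8.81 against 4.18, a difference of 4.63. The siControl array lettered B was likewise the highest of its group. CAPN12 was higher on the siGATA2 arrays in each set of letters, and the siGATA2 level was higher among the arrays lettered A and B. On the siControl side the A and B values rest on array 1 alone, near the detection limit and with the low spike-in signal. Whether the size of the difference or the siControl level goes with the letters therefore cannot be told.

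Among 16586 genes with a symbol and a signal above background throughout 1 or both groups, the 5 with the smallest root mean square difference from the CAPN12 profile over the 8 arrays, each gene centred on its own mean, were SLC8A2 (0.685), ENTPD8 (0.794), EPS8L1 (0.848), KLK7 (0.923) and CCN2 (1.0). The median of this distance was 2.8. SLC8A2 encodes a sodium-calcium exchanger, ENTPD8 an enzyme that hydrolyses extracellular nucleotides, EPS8L1 a relative of the actin regulator EPS8, KLK7 a serine protease of the epidermis and CCN2 a secreted matricellular protein. On siGATA2 arrays 1 to 4 ENTPD8 read 12.37, 12.32, 11.11 and 11.25, and CCN2 8.87, 9.37, 7.64 and 7.90. EPS8L1 and ENTPD8 were well above background on all siControl arrays, where EPS8L1 read 8.93, 8.21, 8.11 and 8.05. SLC8A2 and CCN2 cleared background on 2 of 4 siControl arrays and KLK7 on 0 of 4. The likeness is a description: the genes were picked for the whole CAPN12 profile, so the step between the groups and the step between the siGATA2 pairs are both fixed by the choice. SLC8A2, KLK7 and CCN2 entered through their siGATA2 arrays alone.

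**Figure D2:**
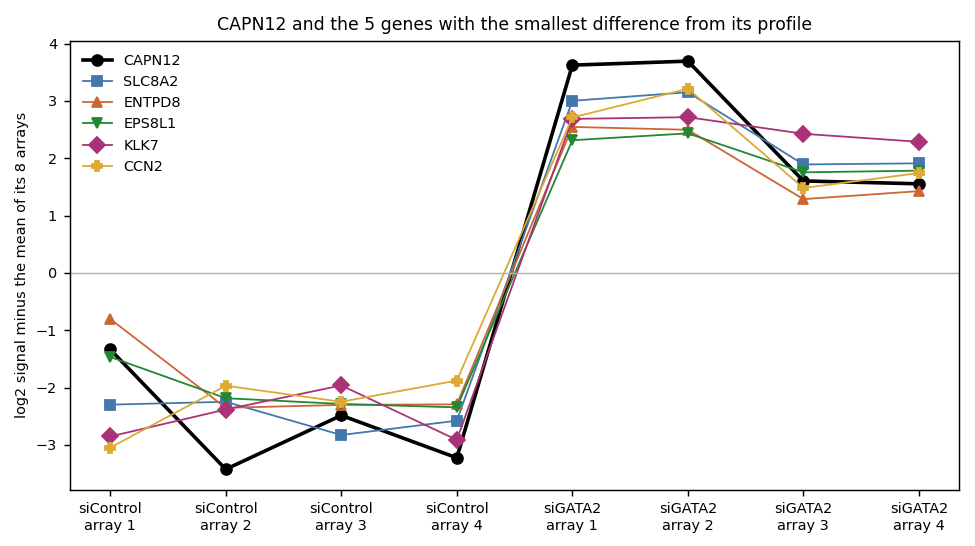
Log2 signal of CAPN12 (black) and the 5 genes nearest to its profile, each minus its own mean over the 8 arrays, with the siControl arrays at the left and the siGATA2 arrays at the right. The 5 genes were chosen for following the CAPN12 line, so the shared steps come from the choice; the distance from CAPN12 runs from 0.685 for SLC8A2 to 1.0 for CCN2.

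CAPN2, the catalytic subunit of m-calpain, was the other gene with a higher signal. It read 14.83, 14.87, 15.17 and 15.26 on the siGATA2 arrays and 13.64, 13.60, 13.39 and 13.45 on the siControl arrays. The groups were separated by a gap of 1.19, and both were far above background. The means were 15.03 ± 0.213 and 13.52 ± 0.118 (SD, n = 4 each), a difference of 1.51 ± 0.135 (SE), or 2.85-fold. The difference was 1.21 within the arrays lettered A and B and 1.73 within those lettered D to G. With all arrays scaled to the E1A spike-in, which placed the median of all genes at -0.43, the CAPN2 difference was 0.80, below 2-fold, and 1.23 above that median. With siControl array 1 left out of that scaling it was 1.21.

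CAPN1, the catalytic subunit of μ-calpain, overlapped between the groups. It read 12.37, 12.34, 12.31 and 12.21 on the siGATA2 arrays and 11.77, 12.37, 12.53 and 12.54 on the siControl arrays. The 4 siGATA2 arrays lay inside the spread of the siControl arrays, whose lowest was array 1. The difference was 0.01 ± 0.182 (SE), with an interval of 2 standard errors from -0.36 to 0.37. Its sign depended on the arrays compared, being 0.59 within letters A and B and -0.22 within D to G, and on the scaling, with -0.64 on the spike-in scale. Relative to the median of all genes on the spike-in scale it was -0.21.

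CAPNS1, the regulatory subunit that both classical enzymes need, likewise overlapped between the groups. It read 14.89, 14.83, 15.13 and 15.04 against 14.24, 15.09, 15.17 and 15.24, and siControl array 1 was again the lowest. The difference was 0.04 ± 0.229 (SE), with an interval of -0.42 to 0.50, and it was 0.62 within letters A and B, which hold siControl array 1, and -0.08 within D to G. Among the classical calpain subunits, then, the only difference of at least 2-fold was that of CAPN2.

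CAST, encoding calpastatin, was measured by 2 probes that carry the same RefSeq accession. The brighter probe read 12.75, 12.73, 13.25 and 13.22 on the siGATA2 arrays and 12.66, 12.81, 12.71 and 12.70 on the siControl arrays, and its difference was 0.27 ± 0.153 (SE). The second probe read 11.33, 11.38, 12.00 and 11.99 against 11.10, 11.15, 11.02 and 11.00, with no overlap between the groups, a gap of 0.18, and a difference of 0.61 ± 0.187 (SE), or 1.53-fold. Both probes had their highest values on siGATA2 arrays 3 and 4, and the siControl arrays were close together, with a range of 0.15 for either probe. Within the arrays lettered D to G the differences were 0.49 and 0.94, and within A and B they were 0.08 and 0.25. On the spike-in scale the brighter probe was lower by 0.39 on the siGATA2 arrays, a difference of -0.39, so the sign for calpastatin depended on the scaling. That value was 0.04 above the median of all genes on the same scale, which was -0.43.

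**Figure D3:**
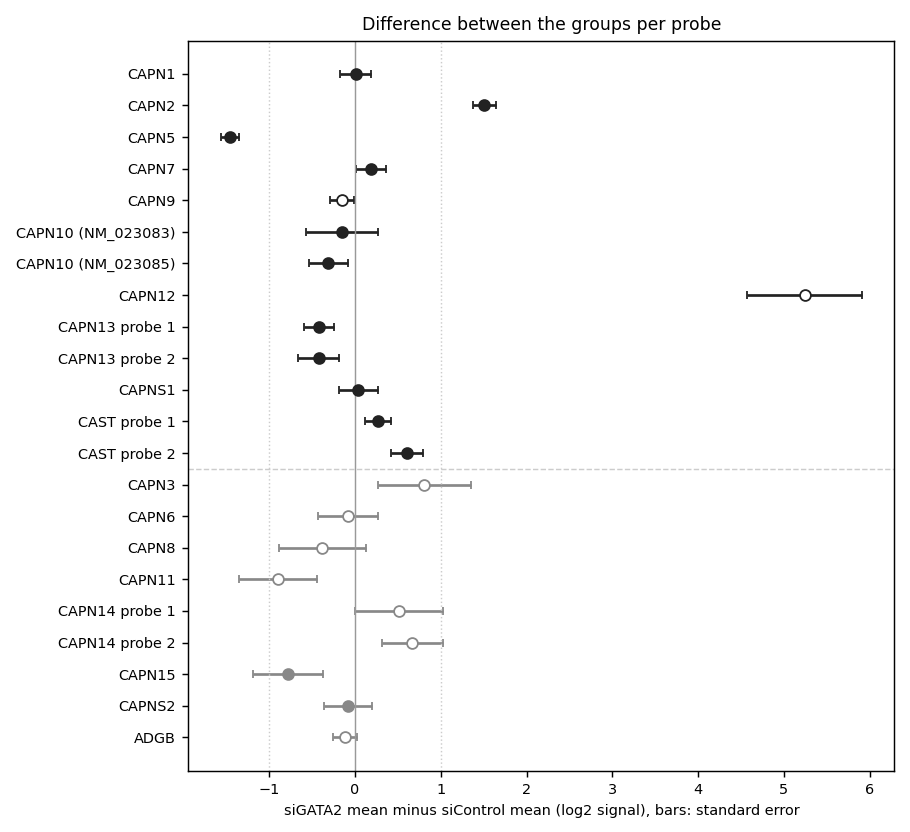
Difference between the siGATA2 and siControl means in log2 signal, with standard errors, for each probe of the 10 described genes (black, above the dashed line) and of the other calpain family genes (grey, below it); hollow points mark probes not well above background on all 8 arrays and dotted lines mark 2-fold. CAPN12 stands alone at 5.24, CAPN2 at 1.51 and CAPN5 at -1.46, and no other probe passes the 2-fold lines.

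CAPN5, a calpain without the penta-EF-hand domain that is best known from the retina, was the gene with the clearest lower signal. It read 8.19, 7.89, 8.08 and 8.04 on the siGATA2 arrays and 9.64, 9.46, 9.51 and 9.44 on the siControl arrays. No arrays overlapped and the gap was 1.25. The means were 8.05 ± 0.121 and 9.51 ± 0.0894 (SD, n = 4 each), a difference of -1.46 ± 0.106 (SE), or 2.75-fold. The siGATA2 pairs, which were far apart for CAPN12, differed by -0.02 for CAPN5, and the difference was -1.60 within letters A and B and -1.41 within D to G.

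CAPN7, a calpain with domains that bind the ESCRT-III membrane remodelling machinery, and CAPN10, a locus studied in type 2 diabetes genetics, did not separate the groups. CAPN7 read 8.22, 8.14, 8.71 and 8.78 on the siGATA2 arrays and 8.16, 8.47, 8.19 and 8.28 on the siControl arrays, a difference of 0.19 ± 0.177 (SE). Its higher values were those of siGATA2 arrays 3 and 4, which gave a difference of 0.43 within letters D to G and 0.02 within A and B.

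The CAPN10 probes carry different transcript accessions and differed in how the arrays were ordered. The NM_023083 probe read 11.92, 11.79, 10.34 and 10.32 on the siGATA2 arrays and 11.70, 11.09, 11.14 and 11.04 on the siControl arrays. The siControl arrays sat between the siGATA2 pairs, so the mean difference of -0.15 ± 0.417 (SE) combined 0.15 within letters A and B with -0.76 within D to G. The NM_023085 probe read 7.56, 7.70, 7.06 and 7.20 against 7.13, 7.93, 7.86 and 7.83, a difference of -0.31 ± 0.228 (SE), with 0.50 within A and B and -0.75 within D to G. On siControl array 1 the first probe had the highest value of its group and the second the lowest. Both probes were lower on siGATA2 arrays 3 and 4 than on siControl arrays 2, 3 and 4, without overlap. Over all arrays the groups overlapped for both probes. The subset was looked at after seeing the data, and the share of all genes separated in it was not computed.

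CAPN13 and CAPN9 share the domain order of CAPN1 and CAPN2, and CAPN9 is known from the digestive tract. The 2 CAPN13 probes carry the same accession and gave the same difference of -0.42, with standard errors of 0.172 and 0.239. The first read 10.82, 10.95, 11.42 and 11.31 on the siGATA2 arrays against 11.32, 11.71, 11.46 and 11.70, and the second 9.90, 10.18, 10.82 and 10.77 against 10.53, 11.04, 10.76 and 11.01. For both probes siGATA2 arrays 1 and 2 were the lowest of all 8, and arrays 3 and 4 overlapped the siControl arrays. The difference of the first probe was -0.43 within letters A and B and -0.26 within D to G. Over 17 ways of processing it ranged from -1.03 to -0.32, below 0 in each. Several of these ways change only the filter or the test and cannot move the difference, so their agreement adds nothing. CAPN9 read 5.36, 5.06, 5.39 and 5.31 against 5.13, 5.53, 5.66 and 5.41, a difference of -0.15 ± 0.144 (SE). It cleared background on the fewest arrays of the 10 genes, on 4 of 4 siGATA2 arrays and 2 of 4 siControl arrays.

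Across the 13 probes, siGATA2 arrays 1 and 2 lay on one side of arrays 3 and 4 in 11, beside 79.4% of all genes. Arrays 1 and 2 were higher for CAPN1, CAPN12 and both CAPN10 probes and lower for CAPN2, CAPN7, CAPNS1 and both probes of CAPN13 and of CAST. What these letters have to do with the calpain levels was not tested.

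The sign of most small differences depended on the processing. Over 17 ways of processing, CAPN12 ranged from 3.37 to 6.52, CAPN2 from 0.80 to 1.61 and CAPN5 from -1.96 to -1.23, none of them crossing 0. Several of these ways change only the filter or the test, which leaves a difference as it was. CAPN1 ranged from -0.64 to 0.07, CAPNS1 from -0.67 to 0.17, CAST from -0.39 to 0.44, CAPN7 from -0.28 to 0.32, CAPN9 from -0.44 to 0.16 and CAPN10 from -0.81 to 0.51, all crossing 0. The low end of each of these ranges is the spike-in scale, where the median of all genes was itself -0.43. For CAPN10 both rescalings kept the sign, and it was above 0 with array weights (0.51) and with siControl arrays 2 and 4 only (0.03). No direction is therefore given for these 6 genes.

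**Figure D4:**
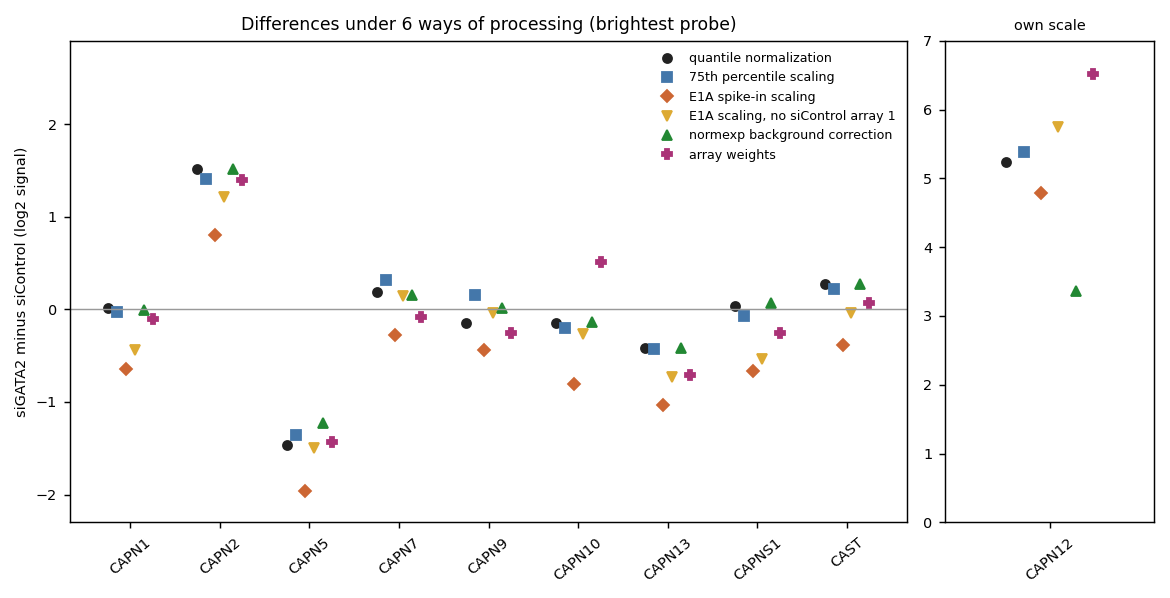
Difference between siGATA2 and siControl in log2 signal for the brightest probe of each gene under 6 ways of processing, with CAPN12 on its own scale at the right. CAPN2 stays above 0 (0.80 to 1.61 over all ways tried), CAPN5 below 0 (-1.96 to -1.23) and CAPN12 above 3, while the spike-in scale lies lowest for each gene except CAPN12, where normexp correction does.

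Other calpain family genes had a probe in 8 of 8 cases, and 6 were bright enough to be tested. Of these, 0 were called in either direction at an adjusted p under 0.05 (limma), 0 at an unadjusted p under 0.05 and 0 by the methods' t-test, beside 26.5% of all genes called at any fold (14.2% lower, 12.3% higher). The median difference of the 6 was -0.08. CAPN3, the muscle calpain whose loss causes a limb-girdle muscular dystrophy, read 7.92, 7.81, 6.05 and 6.0 on the siGATA2 arrays and 7.03, 5.82, 5.75 and 5.93 on the siControl arrays, a difference of 0.81 ± 0.540 (SE, adjusted p = 0.313, limma). CAPN15, a relative of the Drosophila small optic lobes protein, read 13.28, 13.25, 11.87 and 11.63 against 13.65, 13.21, 13.08 and 13.18, a difference of -0.78 ± 0.408 (SE, adjusted p = 0.208, limma). In both genes siGATA2 arrays 1 and 2 stood far above arrays 3 and 4. With the A and B letters set as a block apart from the rest, an alternative chosen after seeing the data, CAPN3 was called higher at 0.42 ± 0.137 (adjusted p = 0.0447, limma) and CAPN15 lower at -1.04 ± 0.206 (adjusted p = 0.00612, limma). With array weights CAPN3 was called higher at 1.64 ± 0.329 (adjusted p = 0.00354, limma).

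The remaining family members gave small or unmeasured differences. CAPNS2, a second gene for a small subunit, differed by -0.08 ± 0.283 (SE) and CAPN6, a calpain without an active-site cysteine, by -0.08 ± 0.346, with CAPN6 well above background on 2 of 4 siControl arrays. With array weights both were called lower, CAPNS2 at -0.44 ± 0.156 (adjusted p = 0.044, limma) and CAPN6 at -0.70 ± 0.222 (adjusted p = 0.0273, limma). The brighter CAPN14 probe differed by 0.51 ± 0.514, with siGATA2 array 4 at 6.90 and the other 3 siGATA2 arrays between 4.36 and 5.04. The second CAPN14 probe did not clear background on any of the 4 siControl arrays, 0 of 4. CAPN8, CAPN11 and ADGB, the gene of androglobin, were well above background on 0 of 8 arrays, and the last 2 were below the minimum mean level of 3 and not tested.

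The genes around the calpains were described from 4 lists: relatives of the small subunit with the penta-EF-hand fold, reported substrates in adhesion and the cytoskeleton, reported substrates in signalling and cell death, and genes of calcium release and store-operated entry, which supply the calcium that calpains need. Calls in these lists are at an adjusted p under 0.05 at any fold in limma, adjusted over all genes tested, and 14.2% of all genes were called lower and 12.3% higher by that rule. All transcripts are those of the substrates or partners, and the array does not measure cleavage. Each gene of these lists is given by its brightest probe alone. SPTAN1, CTTN, BID, BAX and ITPR2, among others, had 2 probes, and the dimmer probe is not described.

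Among the 4 penta-EF-hand relatives 2 were called lower and 0 higher, with 2 lower and 0 higher at an unadjusted p under 0.05, 1 lower and 0 higher by the methods' t-test, and a median difference of -0.26 against 0.09 for all genes. PEF1, which forms a dimer with the gene product of PDCD6, fell by 0.85 (-0.85 ± 0.231, SE; adjusted p = 0.0293), and GCA, encoding grancalcin, fell by 0.49 (-0.49 ± 0.136, SE; adjusted p = 0.0326). Leaving out any single array took this count from 2 to 0 or 1: it was 1 without siGATA2 array 3 or 4 or siControl array 1, and 0 without any of the others.

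Of 20 tested adhesion and cytoskeleton substrates, 4 were called lower, 8 higher and 8 neither, with a median of 0.07. ITGB1, the integrin β1 chain, fell by 1.78 (-1.78 ± 0.227, SE; adjusted p = 0.000834), MARCKS, a membrane-bound actin-binding substrate of protein kinase C, by 1.59 (-1.59 ± 0.159; adjusted p = 0.000248) and CTTN, encoding cortactin, by 0.97 (-0.97 ± 0.204; adjusted p = 0.00945). ITGB4, the integrin β4 chain of hemidesmosomes, rose by 2.06 ± 0.307 (adjusted p = 0.00182), SPTAN1, encoding the αII-spectrin that is a standard readout of calpain cleavage, by 1.73 ± 0.113 (adjusted p = 3.88e-05) and VCL, encoding vinculin, by 1.19 ± 0.136 (adjusted p = 0.000483). On the spike-in scale 0 of the 20 were called higher, and with siControl array 1 left out of that scaling 3 were called higher and 7 lower.

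Of 14 signalling and cell death substrates, 5 were called lower, 2 higher and 7 neither, with a median of -0.06. MYC fell by 2.75 (-2.75 ± 0.111, SE; adjusted p = 1.32e-05), BAX, a pore-forming death protein, by 1.22 (-1.22 ± 0.271; adjusted p = 0.0122) and BID, a death agonist that calpain can activate by cleavage, by 0.94 (-0.94 ± 0.128; adjusted p = 0.00114). JUN rose by 2.82 ± 0.278 (adjusted p = 0.00023) and PRKCA, encoding protein kinase Cα, by 1.25 ± 0.113 (adjusted p = 0.000155). On the spike-in scale 2 were called lower and 1 higher.

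Of 8 genes of calcium release and store-operated entry, 3 were called lower, 2 higher and 3 neither, with a median of 0.17. The inositol trisphosphate receptor genes went opposite ways: ITPR2 rose by 1.85 ± 0.233 (SE; adjusted p = 0.000778) and ITPR3 fell by 0.69 (-0.69 ± 0.196; adjusted p = 0.0339), and ITPR1 differed by 0.21 ± 0.170 (adjusted p = 0.407). STIM1, the calcium sensor of the endoplasmic reticulum, rose by 1.15 ± 0.146 (adjusted p = 0.000788), while its channel partners ORAI1 and ORAI2 fell by 0.60 (-0.60 ± 0.134; adjusted p = 0.0128) and 0.50 (-0.50 ± 0.137; adjusted p = 0.0285). The remaining channel gene, ORAI3, differed by 1.32 ± 0.749 (adjusted p = 0.24) and was called higher with array weights (2.43 ± 0.467; adjusted p = 0.00293). The count of 3 lower was 1 without siGATA2 array 2, 3 or 4 or siControl array 3 or 4, and on the spike-in scale 0 genes were called in either direction.

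**Figure D5:**
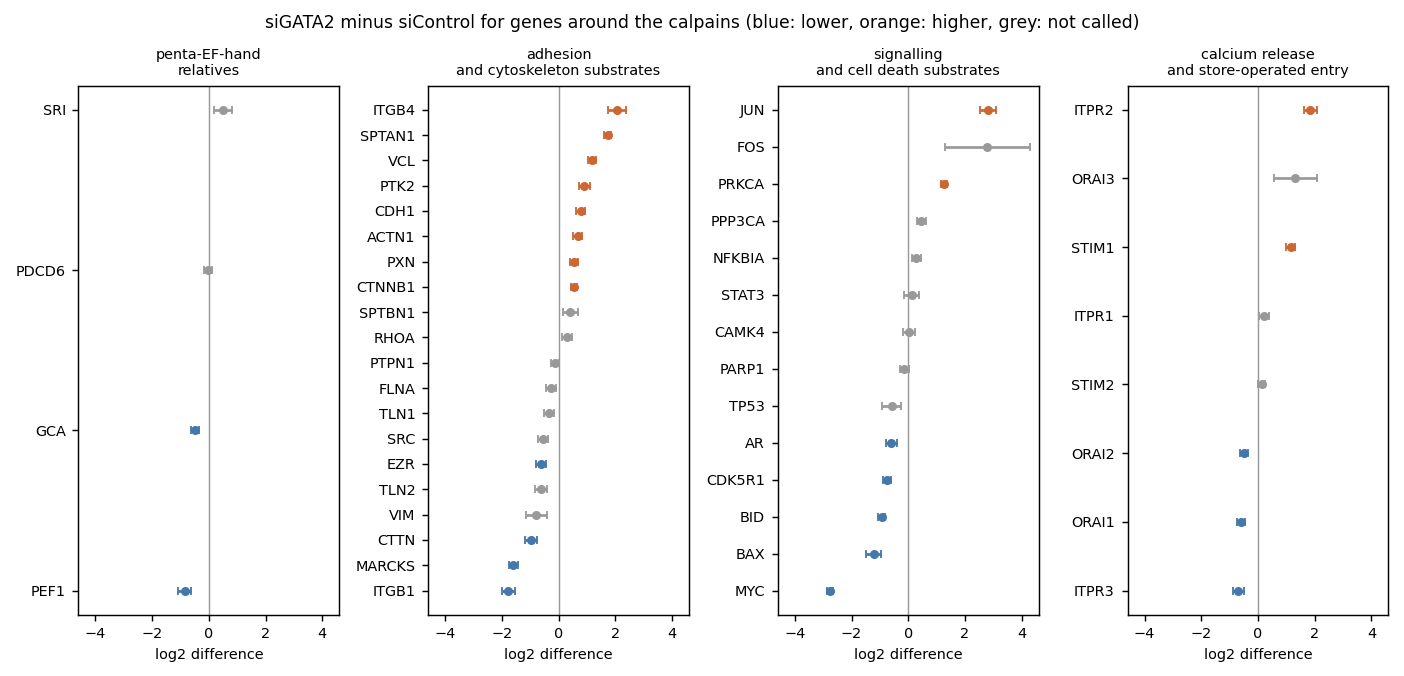
Difference between siGATA2 and siControl in log2 signal, with standard errors, for the tested genes of 4 lists around the calpains; blue marks genes called lower, orange genes called higher (limma, adjusted p under 0.05) and grey the rest. Each list with over 4 genes holds calls in both directions, from MYC at -2.75 to JUN at 2.82, and the list medians lie between -0.26 and 0.17.

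The neighbours of the members on their chromosomes, taken by order in RefSeq, give a second view of each locus. Unless stated, those named are the nearest protein-coding genes, since many of the nearest annotated loci had no probe. CAPN12 on chromosome 19 overlaps ACTN4, an actinin gene that was higher by 0.68 ± 0.156 (adjusted p = 0.0142, limma), and its neighbour on the other side, LGALS7, differed by 0.55 ± 0.222 (adjusted p = 0.108, limma). The ACTN4 probe read 13.06, 13.15, 13.01 and 12.89 on the siGATA2 arrays, without the step between the pairs that CAPN12 had. CAPN2 on chromosome 1 lies between CAPN8, which was not above background, and TP53BP2, which was lower by 0.68 (-0.68 ± 0.200; adjusted p = 0.0404, limma). CAPN5 on chromosome 11 overlaps OMP, which differed by -0.64 ± 0.281 (adjusted p = 0.139, limma). B3GNT6 on its other side differed by 0.09 ± 0.274 (adjusted p = 0.831, limma).

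Some neighbours had a larger difference than the member they adjoin. GALNT14, next to CAPN13 on chromosome 2, read 8.60, 8.68, 8.43 and 8.53 against 11.90, 11.28, 11.25 and 11.24, and fell by 2.86 (-2.86 ± 0.169, SE; adjusted p = 2.66e-05, limma), and LCLAT1 on the other side fell by 0.81 (-0.81 ± 0.108; adjusted p = 0.00103, limma). RNPEPL1, the protein-coding gene before CAPN10 on chromosome 2, fell by 1.71 (-1.71 ± 0.167; adjusted p = 0.000219, limma) and POLA2, the one after CAPN1 on chromosome 11, by 1.37 (-1.37 ± 0.231; adjusted p = 0.00331, limma). Other neighbours of CAPN10 and CAPN1 were not called. GPR35 after CAPN10 differed by 0.29 ± 0.244 (adjusted p = 0.413, limma). SPDYC before CAPN1 differed by 0.26 ± 0.0886 (adjusted p = 0.0696, limma). SLC22A20P, the nearest annotated locus after CAPN1, differed by 0.13 ± 0.328 (adjusted p = 0.796, limma). Neighbours of CAPN7, CAPN9, CAPNS1 and CAST with a tested probe had adjusted p values of 0.058 (SH3BP5, -0.81) or above.

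GATA factors bind a GATA core, so the promoter windows of the members were searched on either strand for GATA with an A or T directly before it and an A or G directly after it. The windows run from 250 bases before to 50 after each transcription start in RefSeq (GRCh38.p14), and 8 of the 10 genes had at least 1. A word was found in 5 of their 16 windows (31.2%), against 25.0% of 35116 windows of all genes. The genes with a word were CAPN1, CAPN13 and CAST. CAPN5 and CAPN12, which were among the called members, had no window and were not searched. Stretches of 70 bases from CAPN1 and CAPN13 are shown for their words, in capitals, and the 70 bases before a start of CAPN2, the classical subunit that differed, for comparison, with no word.

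CAPN1 promoter, chr11:65181772-65181841, plus strand: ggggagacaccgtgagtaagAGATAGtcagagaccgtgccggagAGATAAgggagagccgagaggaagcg

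CAPN13 promoter, chr2:30807576-30807645, minus strand: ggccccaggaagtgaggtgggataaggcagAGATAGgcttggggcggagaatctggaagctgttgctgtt

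CAPN2 promoter, chr1:223712469-223712538, plus strand: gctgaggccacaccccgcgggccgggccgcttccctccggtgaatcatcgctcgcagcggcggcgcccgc

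The CAPN1 stretch runs from 156 to 87 bases before its start and holds 2 words, which a further CAPN1 window includes again because the starts lie close together. The CAPN13 stretch runs from 199 to 130 bases before the start and holds 1 word. CAPN2 and CAPNS1, with 2 windows each, and CAPN7, CAPN9 and CAPN10, with 1 each, held none. A match is a description of the letters and not a binding site, and no binding was measured on these arrays.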

How the data were processed

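Total RNA of LNCaP cells was labelled with Cy3 and hybridised to 8 one-colour Agilent arrays, 4 per group, and groups and replicate numbers were read from the labels. For every spot the authors deposited its intensity from Agilent Feature Extraction 11.0.1.1, and a table of log2 values of the same arrays, which correlated best with the processed signal of their own array in all 8 cases. The methods name quantile normalization in GeneSpring. The genome build of the array annotation was not used for coordinates.

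From the deposited intensity, log2 processed signals of unflagged spots were averaged per probe and brought to the same quantiles on all 8 arrays (limma 3.58.1, R 4.3.3). There were 0 saturated spots. Probes were named through RefSeq accessions: 26364 of 27902 probes with an accession matched a symbol. Probes without annotation or with a mean log2 signal under 3 were left out, the brightest probe stood for a gene, and lmFit and eBayes were followed by Benjamini-Hochberg adjustment over 28850 genes. Standard errors are those of limma, and members measured by a further probe are described for each probe. A called gene had an adjusted p under 0.05, and for the members also at least a 2-fold difference.

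The members and gene lists were chosen with earlier results of these data known, and no p-value is given for the members' difference between the groups. Genes named are GATA2, the members, other calpain family genes with a probe, in each further list the 3 called genes with the largest fall and rise, the nearest annotated gene on each side of a member, and the 5 genes nearest to the CAPN12 profile. From the lists 2 genes are not reported here. The nearest protein-coding genes, ITPR1, ORAI3, PXN, CTNNB1 and the marker genes were added to that rule. The limma script was tested on simulated data. There 51% of genes shifted by 1.5 on the log2 scale and 82% of those shifted by 2.5 were called, and 2.21% of calls were false. A gene that was not called may therefore still differ. The number of arrays limits the precision. The standard errors and p-values treat the arrays of a group as independent, while the siGATA2 arrays fell into pairs. If the arrays of a pair are not independent, the p-values are too small, which was not tested.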

Additional observations from a re-analysis of the deposited data

Results flagged for a closer look

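In groups of 4 arrays, 3 of 28 groups (13 member probes and GATA2, each in both groups) had a value that stood apart from the other 3 by Dixon's criterion (the gap to the nearest value over the range). Chance gives about 1 such group in 20, and all 3 were on siControl array 1. The CAPN10 probe for NM_023083 read 11.70 there, against 11.04 to 11.14 on the other siControl arrays, a gap over the range of 0.845. The CAPN10 probe for NM_023085 read 7.13, against 7.83 to 7.93, with 0.87. CAPNS1 read 14.24, against 15.09 to 15.24, with 0.851. The E1A spike-in on that array read 11.13, against 13.45 or more elsewhere, and its part in these values was not tested.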

How the results depend on the processing

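Among the members, 1 was called lower by at least 2-fold in 25 of 25 alternatives, and 2 higher in 24 of 25, with 1 higher on the E1A spike-in scale, where CAPN2 was at 0.80. The members were chosen from this same contrast, and several alternatives change only the filter or the test. These tallies are therefore a description and add no support. In the main processing 7.13% of all genes were called lower and 4.52% higher by the same rule. Leaving out each array in turn gave 1 lower and 2 higher each time, with CAPN12 at 4.88 to 5.67, CAPN2 at 1.43 to 1.58, CAPN5 at -1.51 to -1.41 and GATA2 at 0.49 to 0.89. None of the 3 called members changed sign. Among called list genes, PXN (-0.17) and CTNNB1 (-0.16) changed sign on the spike-in scale, and slide row as a block, array weights and the letters as a block turned none. GATA2 was called higher when arrays were weighted (1.1) and when the A and B letters formed a block (0.47). The causes of the changes were not tested.

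The share of all genes called is given for the main processing only. A count that changes with the setting may therefore follow that share and is not read as particular to a list. With array weights 2 other calpain genes were called lower and 1 higher, 9 adhesion substrates lower and 5 calcium genes higher. With the letters as a block, 1 other calpain gene was called lower and 1 higher, 1 penta-EF-hand relative higher and 5 signalling substrates higher. On the spike-in scale, 1 penta-EF-hand relative was called lower, 0 adhesion substrates higher, 2 signalling substrates lower and 1 higher, and 0 calcium genes lower and 0 higher. With siControl array 1 left out of that scaling, 7 adhesion substrates were called lower and 3 higher. The count of penta-EF-hand relatives called lower was also 1 with 75th percentile scaling, with the methods' t-test and with siControl arrays 2 and 4 only, and 0 with slide row as a block, where 3 signalling substrates and 1 calcium gene were called lower. Leaving out an array gave 0 to 1 penta-EF-hand relatives and 1 to 3 calcium genes called lower. All 8 arrays share 1 slide, so the slide could not be fitted as a block.

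Replicate numbers carried no pairing: deviations of same-numbered arrays correlated at 0.537, -0.31, 0.17 and 0.225. With the replicate block 1 penta-EF-hand relative was called lower, 5 adhesion substrates lower and 8 higher, and the members' counts stayed at 1 lower and 2 higher.

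Signal over background limits CAPN12 and CAPN9 most, which were not well above background on 1 and 2 of 4 siControl arrays. Spike-in scaling without siControl array 1 and the letters as a block were chosen after seeing the data.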
